A study of Arabidopsis thaliana with 8 samples.

Results

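The response of SND1XVE protoplasts to estradiol was described across all 22746 probe sets of the array that are not Affymetrix controls. Of the 8 arrays in the series, the 4 arrays of SND1XVE cells gave these changes. They were 2 arrays of cells given cycloheximide alone (control) and 2 arrays of cells given cycloheximide plus estradiol. The other 4 arrays hold VND7XVE cells under the same pair of treatments. They serve for comparison and also enter the estimate of scatter behind each p-value and call. Samples came from Arabidopsis protoplasts, which are plant cells freed of their walls, and the genotype is given as SND1XVE or VND7XVE with no further allele. Cycloheximide, which blocks protein synthesis, was present in every group, controls included. The sources used here give no promoter, fusion structure, dose or time. Nor do they say whether a group's 2 arrays hold separate cultures: p-values measure only the scatter of these arrays, which may be technical.

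SND1 is a transcription factor of the NAC family that switches on secondary wall formation in fibres, the thick-walled supporting cells of stems. VND7 is a related factor known for the same role in the water-conducting vessels. Secondary walls are built mainly of cellulose, xylan and lignin, and their deposition needs glycosyltransferases, sugar-nucleotide supply, lignin enzymes and a reorganised cytoskeleton. In vessels and in some fibres it is followed by programmed cell death with proteases and nucleases. Because cycloheximide prevents new regulatory proteins from being made, the comparison asks which transcripts change when SND1 is activated without such intermediates. No group of cells lacking both factors received estradiol. Within SND1XVE cells the effect of estradiol itself and that of SND1 therefore cannot be told apart. VND7XVE cells given estradiol show only whether a change was also seen in a line with a related factor. Arrays of pooled cells also cannot tell a larger share of responding cells from more transcript per cell.

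The annotation gave 1 gene to 13513 of the 22746 probe sets and several genes to 503, and 8730 were not listed in it. SND1 itself is named by no probe set used here, so its own level was not analysed. The 4 SND1XVE arrays had the same trimmed mean signal of 500.1, and replicates correlated at 0.977 in the control group and 0.984 in the estradiol group on the log2 scale. Array medians read 100.7 and 102.0 in controls, then 109.9 and 109.4 with estradiol, so both estradiol arrays lay above both control arrays. The ratio of the 3' to the 5' actin control probe set, a measure of RNA integrity, was 2.803 and 2.866 in controls and 3.301 and 3.206 with estradiol. The same ratio for GAPDH was 1.083 and 0.985 in controls and 1.034 and 0.939 with estradiol, so that its groups overlapped. In VND7XVE cells the actin ratio was 3.721 and 4.157 in controls and 4.641 and 3.977 with estradiol, above every SND1XVE array. Their GAPDH ratios, 0.982 and 0.946 in controls and 1.013 and 1.015 with estradiol, lay within the SND1XVE range. The part of these differences, between treatments or between lines, in the results was not tested.

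With estradiol many transcripts of SND1XVE cells rose from very low signals to high ones, while falls were smaller and mostly began from high signals. With limma and an adjusted p under 0.05, 1915 of 22746 probe sets were called, which is 8.42%. Of these, 1107 rose (4.87%) and 808 fell (3.55%), so rises made up 57.8% of the calls. After each array was centred on its median, which moved the median change of all probe sets from -0.01 to -0.108, rises made up 40.3% of the calls. In a model without the intensity trend they made up 69.9%. The split between rises and falls therefore differed with the scaling and with the variance model.

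Size separated the directions more clearly than number. At least 2-fold rises were called for 507 probe sets (2.23%) and at least 2-fold falls for 130 (0.572%). At least 4-fold rises numbered 140 against 2 such falls. Rises of at least 8-fold were called for 51 probe sets and rises of at least 16-fold for 21. The furthest fall among the named genes was -2.71 on the log2 scale, against 6.42 for the furthest rise.

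The largest rises began from low signals. Signals of different probe sets are not on a common scale of transcript amount, so the array median serves here only as a mark of low signal. Of the 51 rises of at least 8-fold, 43 lay below the median on both control arrays, as did all 21 rises of at least 16-fold. For the 51, the median of the mean signals was 26.1 in controls and 697.0 with estradiol. For the 600 rises under 2-fold, 8 began below the median on both control arrays, and the medians of the mean signals were 624.7 and 989.4. Over all probe sets, 11002 of 22746 lay below the median on both control arrays. Falls under 2-fold numbered 678, of which 0 began there, and their medians were 1706.0 and 1131.8. A low signal limits how far a fall can be measured, since 16 was added to each signal before taking logs.

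**Figure D1:**
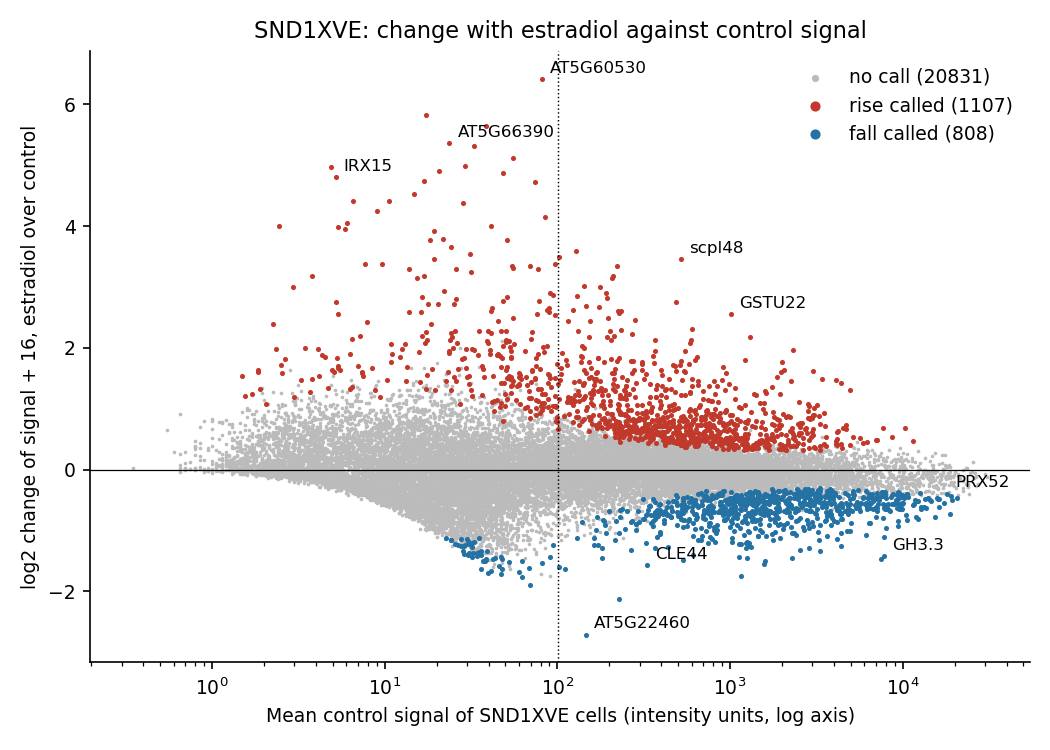
Change of each of 22746 probe sets with estradiol in SND1XVE cells (vertical axis, log2 of signal + 16) against the mean signal of the 2 control arrays (horizontal axis, intensity units on a log axis). Red points are the 1107 called rises, blue points the 808 called falls, grey points the rest, and the dotted line is the mean of the control arrays' medians: the highest red points lie left of it and most blue points right of it.

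The 15 largest rises among probe sets naming 1 gene span 3.78 to 6.42 on the log2 scale. They were chosen among calls whose control and estradiol arrays do not overlap. That held for all 1107 rises, all 808 falls and 10489 of all 22746 probe sets. The largest was AT5G60530, with control signals of 92.9 and 69.5 and estradiol signals of 7974.7 and 8578.3, a log2 change of 6.42 ± 0.12 (SE, adjusted p = 2.49e-09). AT1G65570 had 6.2 and 28.5 in controls and 1776.2 and 1762.1 with estradiol, a log2 change of 5.83 ± 0.37 (adjusted p = 7.04e-06). Neither carries a gene name beyond its locus code in the annotation used. PRX72 (AT5G66390), a class III peroxidase of the kind that couples lignin monomers in the wall, went from 17.6 and 29.8 to 1638.5 and 1563.7. Its log2 change was 5.36 ± 0.15 (adjusted p = 2.66e-08). In each of these genes both control arrays lay below the array median and both estradiol arrays far above it.

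IRX15, a protein that xylan synthesis in secondary walls depends on, had control signals of 6.2 and 4.2. With estradiol its signals were 556.0 and 594.8, a log2 change of 4.80 ± 0.24 (adjusted p = 1.37e-06). GlcAT14B (AT5G15050), a glucuronosyltransferase of the group that acts on arabinogalactan proteins, had 61.1 and 87.9 in controls and 2698.4 and 2061.0 with estradiol. It changed by 4.73 ± 0.34 on the log2 scale (adjusted p = 1.64e-05). These 2 members of the xylan and glucuronosyl group thus stood among the 15 largest named rises.

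The other 10 of the 15 are known here by locus code alone. AT1G70500 rose by 4.96 ± 0.15, from 2.9 and 6.9 to 634.5 and 632.3. AT3G47400 rose by 4.74 ± 0.37 and AT5G07800 and AT4G26880 by 4.41 ± 0.39 each. The last had control signals of 19.7 and 1.5 and estradiol signals of 544.3 and 489.9. In all 4 genes the estradiol arrays lay far above the control arrays.

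AT1G35780 rose by 4.15 ± 0.12, from 72.8 and 96.0 to 1763.3 and 1739.5, and AT2G04850 by 4.05 ± 0.35. AT4G02320 rose by 4.01 ± 0.35, from 2.4 and 2.5 to 268.6 and 294.5. AT5G03510 rose by 4.0 ± 0.17, AT1G53660 by 3.92 ± 0.35 and AT5G60720 by 3.78 ± 0.24. Adjusted p over these 10 genes ran from 3.53e-08 for AT1G35780 to 6.88e-05 for AT4G26880. All 15 calls held when any 1 of the 4 SND1XVE arrays was left out, with a highest adjusted p of 0.00272 for AT4G26880.

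**Figure D2:**
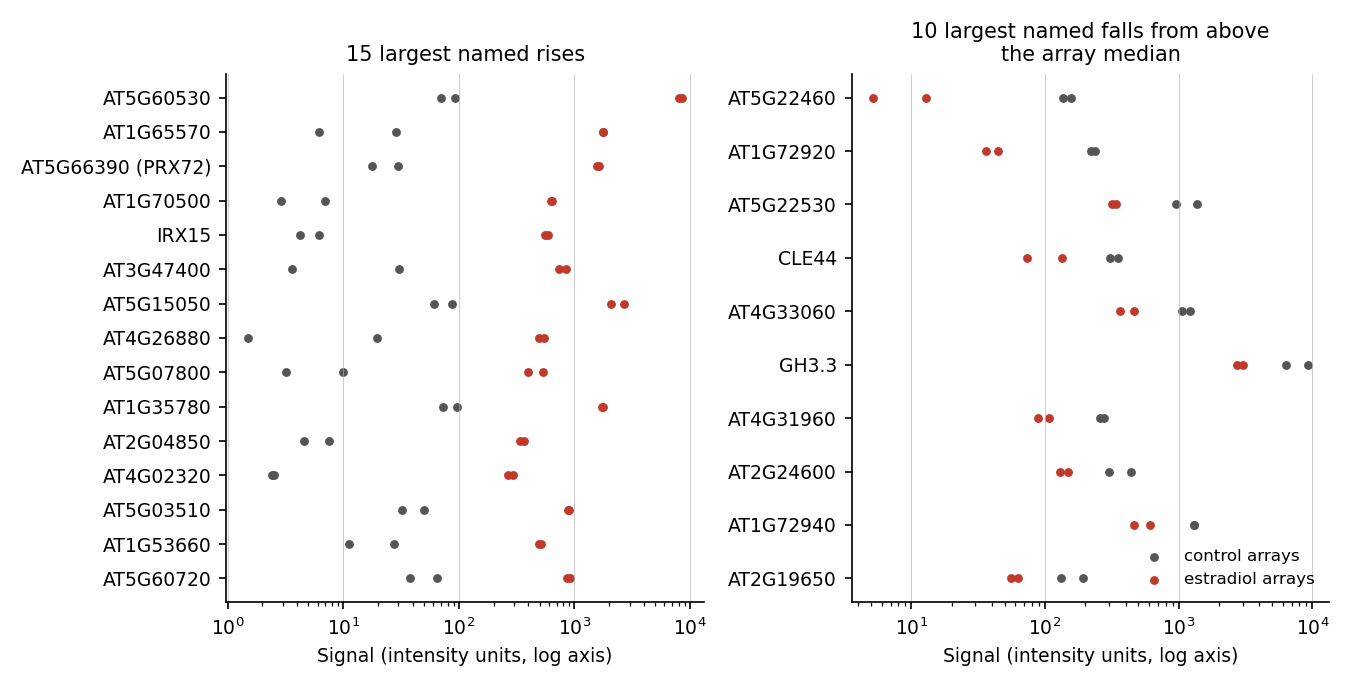
Signal on each array (horizontal axis, intensity units on a log axis) for the 15 largest named rises at left and the 10 largest named falls from above the array median at right, with control arrays in grey and estradiol arrays in red. Rows were chosen among calls whose groups do not overlap, so the separation in each row follows from the choice.

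The next 15 rises, named after their values were seen, ran from 3.77 for AT4G34320 to 3.0 for TET3 on the log2 scale. The serine carboxypeptidase-like gene scpl48, of a family of hydrolases and acyltransferases, had control signals of 508.8 and 530.6 and estradiol signals of 5547.9 and 6217.1. It changed by 3.46 ± 0.10 (adjusted p = 2.66e-08), and unlike most of the 8-fold rises it began above the array median. CXE20, a carboxylesterase, went from 283.5 and 162.8 to 2559.5 and 2128.6, a log2 change of 3.34 ± 0.20 (adjusted p = 4.32e-06). TET3, a tetraspanin of the plasma membrane, went from 177.9 and 173.7 to 1557.4 and 1478.9, a log2 change of 3.0 ± 0.13 (adjusted p = 6.63e-07). For all 3 the lowest estradiol signal was several times the highest control signal.

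The other 11 of these 15 have locus codes only. They are AT5G16230 (3.46), AT3G44450 (3.38), AT1G54790 (3.37), AT5G50170 (3.35), AT1G71695 (3.34), AT3G56060 and AT3G52830 (3.30 each), AT5G38610 (3.24), AT4G05030 (3.18), AT4G10390 (3.14) and AT2G28200 (3.01), all as log2 changes. Within them AT5G16230 went from 20.4 and 18.3 to 377.6 and 366.7, and AT2G28200 from 122.9 and 163.4 to 1375.3 and 1151.6. None of the 15 calls was lost when any 1 SND1XVE array was left out.

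The largest falls came mostly from low signals and held less firmly. AT5G22460 fell furthest, from 155.2 and 136.5 to 5.2 and 12.8, a log2 change of -2.71 ± 0.46 (adjusted p = 0.0045), and lost its call without estradiol replicate 1 (adjusted p = 0.0556). AT1G72920 had 237.5 and 219.7 in controls and 36.0 and 44.8 with estradiol, a log2 change of -2.12 ± 0.24 (adjusted p = 0.000306). AT5G22530 went from 949.1 and 1372.2 to 316.5 and 341.7, a log2 change of -1.75 ± 0.16 (adjusted p = 9.37e-05). The calls of AT1G72920 and AT5G22530 held without any 1 array, with highest adjusted p of 0.00588 and 0.00262.

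The other 7 of the 10 largest falls began below the array median on both control arrays. TRY, a small MYB-type repressor of trichome fate, went from 56.4 and 68.0 to 5.7 and 8.6, a log2 change of -1.76 ± 0.41 (adjusted p = 0.0259). Its call was lost without any 1 of the 4 arrays, at adjusted p from 0.0792 to 0.156. AT3G20900 (-1.90), AT3G29630 (-1.71), AT3G24640 (-1.70), AT5G01075 (-1.68), AT5G57400 (-1.64) and AT4G00990 (-1.61) are log2 changes with adjusted p from 0.0084 for AT3G24640 to 0.0466 for AT5G01075.

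Leaving out 1 array ended all 6 of these calls at least once. AT3G29630 (0.0945 to 0.188), AT5G01075 (0.055 to 0.305) and AT5G57400 (0.0527 to 0.0965) lost theirs without any 1 of the 4 arrays, at the adjusted p given in brackets. AT3G24640 lost its call without estradiol replicate 1 (0.0743). AT3G20900 lost its call without control replicate 2 or either estradiol replicate (0.0533 to 0.0853), and AT4G00990 without either control replicate or estradiol replicate 1 (0.0888 to 0.261).

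Among falls that began above the array median on both control arrays, chosen after their values were seen, CLE44 and GH3.3 carry names. CLE44 encodes a signal peptide from the phloem that keeps vascular stem cells dividing and holds back their differentiation into xylem. Its signals read 308.5 and 350.0 in controls, then 133.7 and 73.8 with estradiol, a log2 change of -1.57 ± 0.23 (adjusted p = 0.00188). GH3.3, an enzyme that joins auxin to amino acids, went from 9228.4 and 6391.9 to 2999.7 and 2728.9, a log2 change of -1.42 ± 0.17 (adjusted p = 0.000386). Both calls held without any 1 array.

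Others of this kind were AT4G33060, whose synonym is cyclophilin 57, and AT1G72940. AT4G33060 went from 1066.9 and 1204.2 to 366.0 and 460.2, a log2 change of -1.43 ± 0.13. AT1G72940 went from 1305.3 and 1290.1 to 465.8 and 611.9, a log2 change of -1.26 ± 0.13. Their adjusted p were 9.41e-05 and 0.000139, and neither call was lost without 1 array. AT4G31960 (-1.33), AT2G24600 (-1.29) and AT2G19650 (-1.23) completed the 10. They lost their calls without control replicate 1 or estradiol replicate 2 (AT4G31960, 0.0545 to 0.06), control replicate 1 or either estradiol replicate (AT2G24600, 0.0767 to 0.126) and control replicate 2 or either estradiol replicate (AT2G19650, 0.0625 to 0.119).

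Gene families were read by the symbols and synonyms of the reference, and probe sets naming 1 gene that were called made up 7.48% of 13513, with 4.5% rises and 2.98% falls. Their median log2 change was -0.01. The shares of small families are set beside these values as descriptions. Of the 13513, 11885 keep a locus code as symbol, and those without a synonym enter no family count. The large rises known by locus code alone are therefore left out of the families. Most named families did not move as a whole: 25 of the 38 held at least 1 call, and in these 1 to 6 members were called. For 12 families, with medians between -0.12 and 0.09 as deposited, the sign of the median differed between the deposited scaling, centred arrays and quantile-normalized arrays. The number of calls in a family moved by more than 1.5 times for 8 families on centred arrays and for 2 after quantile normalization.

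**Figure D3:**
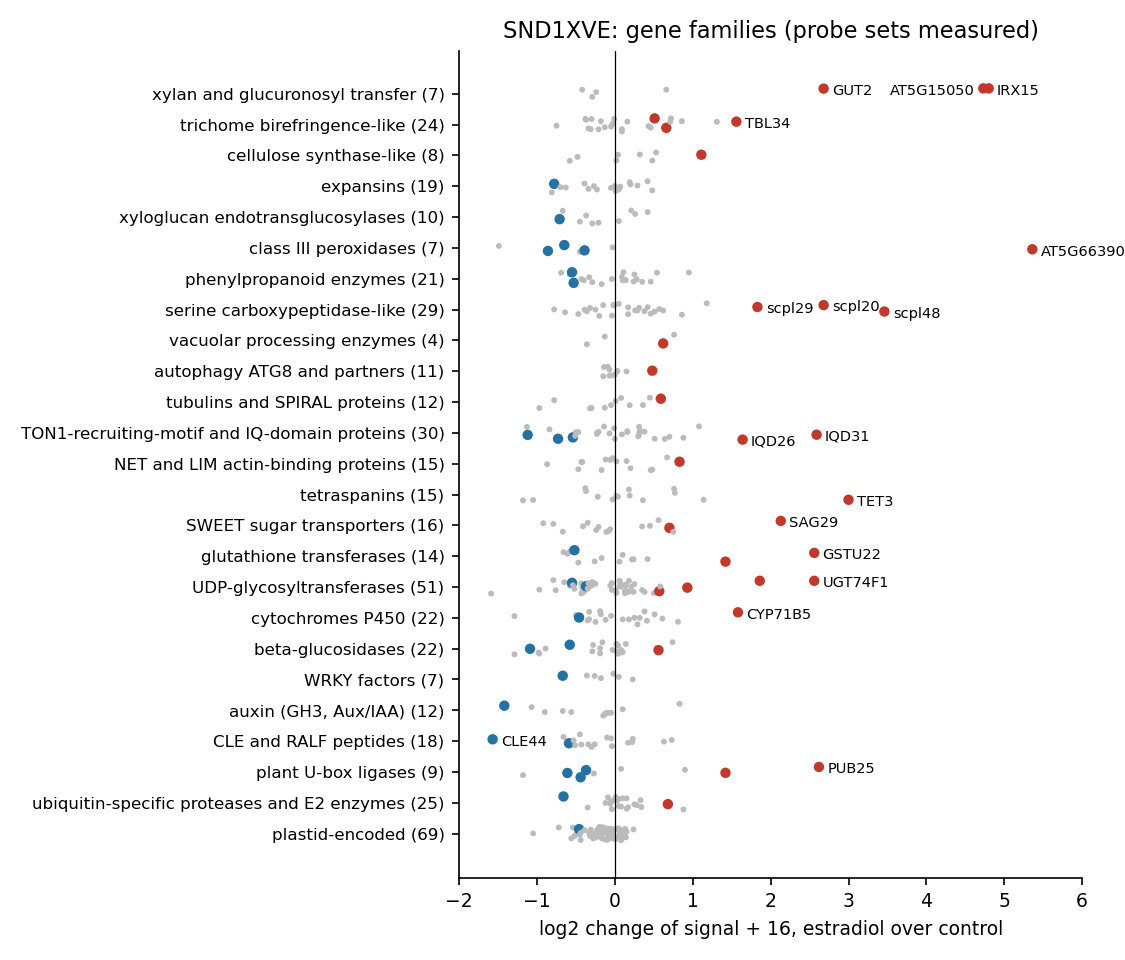
Log2 change of signal + 16 with estradiol (horizontal axis) for each measured probe set of the 25 named families that held a call, with the number of probe sets in brackets. Large red and blue points are called rises and falls and small grey points are not called; in most rows a few members stand away from a group near 0. Vertical spread within a row is random.

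In xylan and glucuronosyl transfer 3 of 7 members rose and 0 fell, and the median log2 change was 0.66. Beside IRX15 and GlcAT14B, GUT2, which is also called IRX10 and is a xylosyltransferase of the xylan backbone, went from 131.7 and 163.2 to 1060.1 and 1000.8. Its log2 change was 2.68 ± 0.14 (adjusted p = 1.64e-06). The 4 members not called lay between -0.42 and 0.66, and they include the closest relatives of the genes that rose.

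Relatives of the genes that rose had smaller estimated changes, in either direction. IRX15-L, the paralog of IRX15, had 313.9 and 353.9 in controls and 237.9 and 251.3 with estradiol, a log2 change of -0.42 ± 0.15 (adjusted p = 0.129). GUT1 had 421.3 and 388.7 in controls and 348.1 and 330.2 with estradiol, a log2 change of -0.24 ± 0.13 (adjusted p = 0.357). AT5G39990, a member of the GlcAT14 group, had 193.5 and 163.8 in controls and 277.9 and 305.3 with estradiol, a log2 change of 0.66 ± 0.22 (adjusted p = 0.103). None of these 3 was called, and the difference in change between paralogs was not tested. At an unadjusted p under 0.05 by limma, the 7 members held 4 rises and 1 fall.

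Trichome birefringence-like proteins acetylate wall polysaccharides, xylan among them. Of 24 probe sets 3 rose and 0 fell, with a median log2 change of 0.04. TBL34 had 6.2 and 28.9 in controls and 73.4 and 81.2 with estradiol, a log2 change of 1.56 ± 0.36 (adjusted p = 0.0228). TBL37 changed by 0.66 ± 0.10 (adjusted p = 0.00176) and TBL18 by 0.51 ± 0.11 (adjusted p = 0.0167), and the rest lay between -0.75 and 1.31. TBL37 was not called without the intensity trend (0.0582). The call of TBL34 was lost without control replicate 1 or either estradiol replicate (adjusted p 0.0897 to 0.121), and that of TBL18 without any 1 array (0.0507 to 0.106).

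Of 8 cellulose synthase-like members 1 rose, CSLC04, a glucan synthase of xyloglucan. It went from 767.5 and 948.9 to 1941.8 and 1793.2, a log2 change of 1.11 ± 0.13 (adjusted p = 0.000429). The family's median was 0.18. USP, the UDP-sugar pyrophosphorylase that makes nucleotide sugars for wall polymers, belongs to no family list and was named after its values were seen. Its signals read 1102.7 and 1034.2 in controls, then 2463.4 and 2347.7 with estradiol, a log2 change of 1.16 ± 0.09 (adjusted p = 3.31e-05).

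Among the listed phenylpropanoid enzymes, of lignin and related phenolics, no rise was called, while the peroxidase PRX72 rose. Of 21 phenylpropanoid enzymes measured, limma called 0 rises and 2 falls, with 0.09 as the median log2 change. At an unadjusted p under 0.05 there were 1 rise and 5 falls. On centred arrays 4 falls and 0 rises were called and the median was -0.01, and after quantile normalization 3 falls and 0 rises. HCT, which makes the shikimate esters of the lignin route, went from 3254.2 and 3281.7 to 2333.2 and 2175.0, a log2 change of -0.53 ± 0.08 (adjusted p = 0.00263). CCOAMT, which methylates caffeoyl-CoA, went from 6281.3 and 6911.3 to 4579.1 and 4397.8, a log2 change of -0.55 ± 0.10 (adjusted p = 0.00479). CCR2, a cinnamoyl-CoA reductase in no list, was named after its values were seen. It went from 7129.7 and 6809.6 to 4051.3 and 4073.9, a log2 change of -0.78 ± 0.08 (adjusted p = 0.000246). All 3 calls held without any 1 array, but those of HCT (0.0733) and CCOAMT (0.0821) were lost without the intensity trend. The 19 list members not called lay between -0.69 and 0.95.

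PRX72 was the 1 called rise among the 7 class III peroxidases with a symbol or synonym. Any peroxidase known by locus code alone was not counted. Prx37 went from 1199.6 and 1142.5 to 581.9 and 694.2, a log2 change of -0.86 ± 0.12 (adjusted p = 0.00156). PRX71 (AT5G64120) changed by -0.65 ± 0.12 (adjusted p = 0.00657) and PRX52 by -0.39 ± 0.10 (adjusted p = 0.0363), and the other 3 members lay between -1.49 and -0.03. With 1 rise and 3 falls the median of these 7 was -0.45, which does not describe the whole family. The calls of PRX71 (without control replicate 2 or estradiol replicate 1, adjusted p 0.0555 and 0.056) and PRX52 (without any 1 array, 0.0703 to 0.169) did not hold, and PRX52 was not called after quantile normalization (0.152).

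Among listed members of families that act on primary walls, read by symbol or synonym, few were called. Expansins, which loosen walls, had 0 rises and 1 fall among 19 members and a median log2 change of -0.00. The fall was EXPA4, from 454.1 and 459.1 to 289.8 and 230.5 (-0.78 ± 0.16, adjusted p = 0.0135). Xyloglucan endotransglucosylases had 0 rises and 1 fall among 10 and a median of -0.25, with XTH18 at -0.71 ± 0.13 (adjusted p = 0.00801). EXPA4 lost its call without either control replicate or estradiol replicate 2 (0.0657 to 0.0997), and XTH18 without control replicate 2 or estradiol replicate 1 (0.0751 and 0.0582).

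By limma 0 of 15 GH9 endoglucanases were called (median 0.07), and 1 rise and 1 fall had an unadjusted p under 0.05. For 5 pectin methylesterases with a symbol or synonym it called 0 (median -0.12, 1 rise at an unadjusted p under 0.05). For 4 SKU5-similar proteins (median -0.05) and 7 subtilases (median -0.12) it called 0, and 0 had an unadjusted p under 0.05. A pectin methylesterase known by locus code alone would not be in its list, so these 5 do not stand for the family.

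Among proteolytic families the serine carboxypeptidase-like genes held the largest rises. Of 29 members 3 rose and 0 fell, with a median log2 change of 0.17, and scpl48 was the first of them. scpl20 went from 162.5 and 188.2 to 1307.9 and 1108.4, a log2 change of 2.68 ± 0.11 (adjusted p = 4.04e-07). scpl29 went from 188.4 and 154.6 to 718.8 and 588.0, a log2 change of 1.83 ± 0.14 (adjusted p = 1.97e-05). The other 26 lay between -0.78 and 1.18, and the 3 calls held without any 1 array.

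Vacuolar processing enzymes and autophagy genes, known for roles in cell death and recycling, moved little. GAMMA-VPE was the 1 rise among 4 vacuolar processing enzymes, from 2341.8 and 2245.1 to 3473.4 and 3599.3 (0.62 ± 0.08, adjusted p = 0.000723). The autophagy gene APG8A, which encodes the membrane-bound protein ATG8A, was the 1 rise among 11 members (0.48 ± 0.11, adjusted p = 0.0245). Its call was lost on centred arrays (0.0572) and without control replicate 1 or either estradiol replicate (0.0913 to 0.136). Medians were 0.25 and -0.04, and 0 members fell in either group.

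For the cytoskeleton, IQ-domain and TON1-recruiting-motif proteins, which bind microtubules, moved in both directions. Of 30 members 2 rose and 3 fell, with a median of 0.05. IQD31 went from 75.1 and 104.5 to 630.7 and 597.8, a log2 change of 2.59 ± 0.21 (adjusted p = 3.6e-05). IQD26 changed by 1.64 ± 0.32 (adjusted p = 0.0104), while IQD27 (-1.12 ± 0.26), IQD22 (-0.73 ± 0.16) and IQD23 (-0.54 ± 0.08) fell, with adjusted p of 0.0241, 0.0204 and 0.00163. IQD31 and IQD23 kept their calls without any 1 array, but IQD23 was not called without the intensity trend (0.0615). IQD27 lost its call without any 1 array (0.0685 to 0.133), IQD26 without control replicate 1 or either estradiol replicate (0.0544 to 0.086) and IQD22 without control replicate 1 or estradiol replicate 2 (0.126 and 0.136).

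TUB9, a beta-tubulin, was the 1 rise among 12 tubulins and SPIRAL proteins (0.59 ± 0.11, adjusted p = 0.00768), and 0 fell. It lost its call without control replicate 2 or estradiol replicate 1 (0.0632 and 0.0739). NET2D, an actin-binding protein, was the 1 rise among 15 NET and LIM proteins, from 319.3 and 310.7 to 593.5 and 553.8 (0.83 ± 0.12, adjusted p = 0.00121). Medians of these families were -0.02 and -0.03. PIR121, a subunit of the complex that starts actin branching and in no list, went from 338.2 and 225.2 to 708.4 and 601.9 (1.19 ± 0.19, adjusted p = 0.00262).

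At membranes, TET3 was the 1 rise among 15 tetraspanins (median 0.04), whose other members lay between -1.18 and 1.14. SWEET sugar transporters had 2 rises and 0 falls among 16 members and a median of -0.09. SAG29, also named SWEET15, went from 17.0 and 31.1 to 162.1 and 152.2, a log2 change of 2.13 ± 0.35 (adjusted p = 0.00341). SWEET2 went from 780.1 and 750.0 to 1268.6 and 1244.0, a log2 change of 0.70 ± 0.09 (adjusted p = 0.000761). Limma called 0 of 7 exocyst subunits, which tether secretory vesicles (median 0.04, 2 rises at an unadjusted p under 0.05).

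Families that conjugate small molecules each held a few calls. Glutathione transferases had 2 rises and 1 fall among 14 members and a median of -0.05. GSTU22 went from 1087.4 and 934.4 to 6531.1 and 5519.5, a log2 change of 2.56 ± 0.11 (adjusted p = 5.22e-07). GSTU25 went from 4361.5 and 4475.3 to 11049.8 and 12765.2, a log2 change of 1.42 ± 0.11 (adjusted p = 3e-05). Both calls held without any 1 array. GSTU16 changed by -0.52 ± 0.14 (adjusted p = 0.0454) and lost its call without either control replicate or estradiol replicate 1 (0.125 to 0.258).

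UDP-glycosyltransferases, which glucosylate hormones and phenolics, had 4 rises and 2 falls among 51 members and a median of 0.01. UGT74F1, which glucosylates salicylic acid, went from 4.3 and 6.4 to 107.3 and 112.4, a log2 change of 2.56 ± 0.33 (adjusted p = 0.000723). UGT71B5 went from 128.4 and 145.4 to 528.1 and 547.9, a log2 change of 1.86 ± 0.14 (adjusted p = 2.61e-05). UGT76B1 (0.93 ± 0.19) and UGT71C4 (0.57 ± 0.15) also rose, with adjusted p of 0.0129 and 0.0392. The falls were UGT76C2 (-0.55 ± 0.12), a cytokinin glucosyltransferase, and UGT71C5 (-0.37 ± 0.10), which acts on abscisic acid, with adjusted p of 0.0142 and 0.0493.

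UGT74F1 and UGT71B5 kept their calls without any 1 array. UGT71C4 lost its call without any 1 array (0.0584 to 0.175) and on centred (0.0803) or quantile-normalized (0.0973) arrays. UGT76B1 lost its call without control replicate 2 or either estradiol replicate (0.0699 to 0.0912), UGT76C2 without either control replicate or estradiol replicate 2 (0.055 to 0.104), and UGT71C5 without the same arrays (0.139 to 0.243).

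CYP71B5 was the 1 rise and CYP71B6 the 1 fall among 22 cytochromes P450 with a symbol (median 0.03). CYP71B5 went from 177.9 and 157.3 to 512.5 and 552.4 (1.58 ± 0.13, adjusted p = 4.58e-05), and CYP71B6 from 13883.5 and 14239.4 to 10149.5 and 10286.6 (-0.46 ± 0.10, adjusted p = 0.0142). The latter lost its call without any 1 array (0.055 to 0.0802). Beta-glucosidases had 1 rise and 2 falls among 22 and a median of -0.09. BGLU27 went from 621.7 and 604.9 to 296.8 and 265.0 (-1.09 ± 0.15, adjusted p = 0.000987) and held without any 1 array. BGLU28 (-0.58 ± 0.13, adjusted p = 0.0183) lost its call without either control replicate or estradiol replicate 1 (0.0909 to 0.151), and BGLU16 (0.56 ± 0.11, adjusted p = 0.0126) without control replicate 2 or either estradiol replicate (0.0508 to 0.104).

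Few transcription factors carry a family symbol in the annotation used, and among those that do limma called 1. WRKY47 went from 1427.9 and 1261.4 to 856.4 and 813.6, a log2 change of -0.67 ± 0.11 (adjusted p = 0.00344), as the 1 fall among 7 WRKY factors, of which 0 rose (median -0.18). It was not called without the intensity trend (0.0618). The counts called were 0 of 21 bZIP factors (median -0.01), 0 of 9 bHLH factors (0.12), 0 of 44 AGAMOUS-like probe sets (-0.17), 0 of 2 MYB-related factors (0.10) and 0 of 1 NAC factor (-0.37). At an unadjusted p under 0.05 they were 3 rises and 1 fall for bZIP, 1 and 1 for bHLH, 1 rise and 2 falls for AGAMOUS-like factors, and 0 for MYB-related and NAC factors. The secondary wall MYB and NAC factors are named by no probe set used here and were not analysed.

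In the auxin list and the peptide list the calls were falls. GH3.3 was the 1 call among 12 auxin genes (GH3 and Aux/IAA), with 0 rises and a median of -0.14. Of 18 CLE and RALF peptide probe sets 0 rose and 2 fell, CLE44 and RALFL33, with a median of -0.28. RALFL33 went from 8049.9 and 7960.8 to 4701.1 and 6023.4 (-0.59 ± 0.12, adjusted p = 0.011) and lost its call without either control replicate or estradiol replicate 1 (0.0643 to 0.0743). The brassinosteroid receptor BRL1, in no list, rose: it went from 49.4 and 24.7 to 147.2 and 147.0 (1.66 ± 0.36, adjusted p = 0.0175) and lost its call without control replicate 2 or either estradiol replicate (0.0973 to 0.112).

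Plant U-box ligases, which mark proteins with ubiquitin, had 2 rises and 3 falls among 9 members and a median of -0.27. PUB25 went from 94.0 and 79.4 to 634.5 and 593.4, a log2 change of 2.62 ± 0.17 (adjusted p = 9.71e-06). PUB19 went from 342.0 and 232.8 to 713.3 and 858.8, a log2 change of 1.42 ± 0.17 (adjusted p = 0.000404). PUB22, a regulator of immune signalling, went from 11470.3 and 14068.0 to 8457.4 and 8161.4 (-0.61 ± 0.11, adjusted p = 0.00688). PUB43 changed by -0.44 ± 0.09 (adjusted p = 0.0134) and PUB23, the paralog of PUB22, by -0.37 ± 0.09 (adjusted p = 0.0327).

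The 2 rises held without any 1 array. PUB22 lost its call without control replicate 2 (0.0549), PUB43 without control replicate 1 or either estradiol replicate (0.0589 to 0.087) and PUB23 without any 1 array (0.105 to 0.122) and after quantile normalization (0.203). Of 25 ubiquitin-specific proteases and E2 enzymes (median 0.05) 1 rose, UBC27 (0.68 ± 0.14, adjusted p = 0.0156), and 1 fell, UBC16 (-0.66 ± 0.12, adjusted p = 0.0059). UBC27 lost its call without control replicate 1 or either estradiol replicate (0.0581 to 0.112) and UBC16 without control replicate 2 (0.0514).

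Stress and nuclear photosynthesis families held no call. Limma called 0 of 10 heat shock genes (median -0.01), 0 of 17 defensins and thionins (-0.05) and 0 of 23 nuclear-encoded photosynthesis genes (-0.02). At an unadjusted p under 0.05 there were 1 rise and 1 fall, 0 rises and 1 fall, and 1 rise and 0 falls. Among 69 plastid-encoded probe sets 0 rose and 2 fell, with a median of -0.13. At an unadjusted p under 0.05 there were 0 rises and 9 falls, and the called falls numbered 6 on centred arrays, with a median of -0.23, and 4 after quantile normalization. The 2 called falls were clpP (-0.56 ± 0.15, adjusted p = 0.05) and petA (-0.46 ± 0.10, adjusted p = 0.0133). clpP was not called after quantile normalization (0.064) or without either control replicate or estradiol replicate 1 (0.1 to 0.26), and petA without either control replicate or estradiol replicate 2 (0.065 to 0.092).

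Defining markers of other cell types were examined with the same fit. The green-cell genes RCA (2489.9 and 2191.6 in controls, 2498.9 and 2295.8 with estradiol) and LHCB4.1 (2663.5 and 2713.3, then 2934.6 and 2559.4) had high signals in both groups. Their log2 changes were 0.04 and 0.03, while LHCB4.2 had -0.21 and LHCB4.3 had 0.58, all with adjusted p of 0.329 or more. The protoplasts thus held transcripts of green cells, with overlapping groups for RCA and LHCB4.1.

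The root hair genes EXPA7 and EXPA18 had signals of 3.5 to 39.6, below the median on every SND1XVE array, and log2 changes of -0.39 and -0.00. The guard cell gene FMA (118.3 and 94.7, then 55.6 and 79.6) changed by -0.56 (adjusted p = 0.429) and the seed gene OLEO3 by -0.24 (adjusted p = 0.784). Of these 8 markers and TRY, the call of TRY was the 1 made. The part of cell mixture in the results was not tested.

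Outside the lists, 68 called probe sets name 1 gene with a symbol, 39 rises and 29 falls, and 23 of them were named after their values were seen. HWS, an F-box protein, went from 77.5 and 65.8 to 255.7 and 258.9 (1.64 ± 0.21, adjusted p = 0.000696). JAL34, a jacalin-related lectin, went from 177.9 and 231.7 to 742.8 and 771.5 (1.82 ± 0.15, adjusted p = 3.84e-05). The chromatin genes LDL2, an LSD1-like protein (54.2 and 68.5, then 193.6 and 205.7, change 1.48 ± 0.26), and PKDM7D (633.9 and 616.9, then 1264.7 and 1232.2, change 0.98 ± 0.08) rose with adjusted p of 0.00524 and 5.4e-05. LDL2 lost its call without estradiol replicate 2 (0.0521).

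Among these 23 were 3 prenylated RAB acceptors, which act in vesicle traffic. The family had no list, so its members without a call were not counted. PRA1.B6 went from 259.0 and 321.7 to 646.8 and 591.4 (1.06 ± 0.15, adjusted p = 0.00162) and PRA1.B4 from 1701.4 and 1834.4 to 3468.2 and 3411.1 (0.95 ± 0.09, adjusted p = 0.000109). PRA1.F1 had 60.4 and 24.4 in controls and 4.7 and 3.5 with estradiol (-1.47 ± 0.38, adjusted p = 0.0403), and its call did not hold without control replicate 1 or either estradiol replicate (0.164 to 0.169). Nor did it hold after quantile normalization (0.0608), with the replicate block (0.0555), with pseudocounts of 1 (0.0525) or 64 (0.0533), over probe sets naming 1 gene (0.0515), with SND1XVE arrays only (0.112), or in the robust (0.0623) and trend-free (0.07) fits. PRA1.F1 began from signals below the array median.

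Further rises were AtS40-3 (1.46 ± 0.21), SBE2.2, a starch branching enzyme (1.13 ± 0.23), ENGase85B, an enzyme that trims sugar chains from proteins (1.11 ± 0.26), NOL, of chlorophyll breakdown (0.97 ± 0.09), and DIM1B, an RNA methylase (0.89 ± 0.17). AtS40-3 and NOL held without any 1 array. SBE2.2 lost its call without control replicate 2 or estradiol replicate 1 (0.0918 and 0.123), ENGase85B without any 1 array (0.0789 to 0.177) and DIM1B without control replicate 1 or either estradiol replicate (0.0528 to 0.0708).

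Among the falls, the calmodulin-like calcium sensors CML41 and CML42 both stood out. CML41 went from 2020.5 and 2057.3 to 1112.6 and 957.9 (-0.97 ± 0.10, adjusted p = 0.000133). CML42 went from 3913.1 and 3788.3 to 2243.4 and 2265.4 (-0.77 ± 0.09, adjusted p = 0.000418). YLS5 (-0.95 ± 0.10), SGP1 (-0.94 ± 0.10) and APS3 (-0.99 ± 0.13) fell with adjusted p of 0.000249, 0.000215 and 0.000907. All 5 of these calls held without any 1 array.

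Many of the strongest responses have no gene name here. Of the 51 rises of at least 8-fold, 22 fell on probe sets not listed in the annotation used, and of the 1915 calls 487 rises and 388 falls did. The largest of them were 246390_at, which went from 52.2 and 25.3 to 2782.1 and 2510.6 (5.65 ± 0.34, adjusted p = 4.52e-06), and 250322_at, which went from 8.4 and 57.6 to 1592.1 and 1770.8 (5.32 ± 0.38, adjusted p = 1.67e-05). The furthest falls were 266339_s_at (-1.66 ± 0.38, adjusted p = 0.021) and 245037_at (-1.64 ± 0.36, adjusted p = 0.0193).

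Set beside VND7XVE cells, most SND1XVE calls did not show a called difference in response. The difference between the estradiol effects was tested in the same limma model, and 291 of 22746 probe sets (1.28%) were called, 95 with the higher change in SND1XVE (0.418%) and 196 with the higher change in VND7XVE (0.862%). Of the 1107 SND1XVE rises, 85 had a higher change in SND1XVE, 61 a higher change in VND7XVE, and 961 no called difference, which does not show that they responded alike. The rises were selected on a high SND1XVE change, which also enters the difference, so the choice itself favours differences above 0. Over all 22746 probe sets, 4.55% were called rises and 3.01% called falls in VND7XVE cells. Of the same 1107, 574 were also called rises in VND7XVE cells and 4 were called falls. Each line has control arrays of its own, and 1 variance per probe set was estimated over both lines.

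Large rises were seen in both lines. Of the 507 rises of at least 2-fold 346 were called rises in VND7XVE, and of the 51 of at least 8-fold 46 were. Of the 808 falls, 367 were called falls in VND7XVE and 10 were called rises. For 23 of the 808 falls the change was called lower in SND1XVE, and for 0 it was called higher, with 229 and 8 at an unadjusted p under 0.05. These falls were selected on a low SND1XVE change, which also enters the difference. The choice itself favours differences below 0, so the split cannot show how the lines compare. Of 130 falls of at least 2-fold, 51 were also called falls in VND7XVE.

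**Figure D4:**
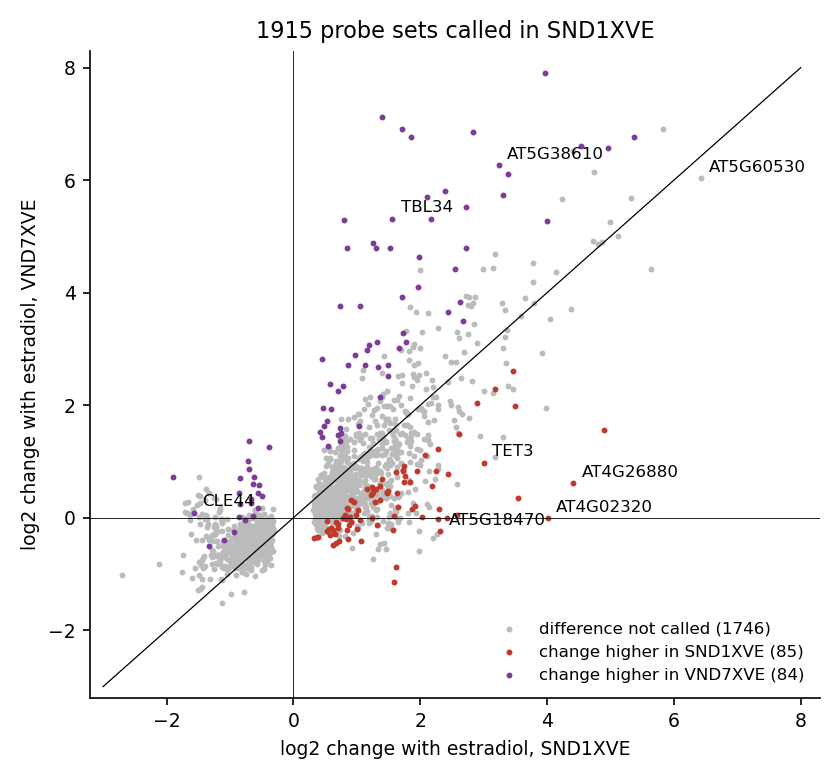
Log2 change with estradiol in SND1XVE cells (horizontal axis) and in VND7XVE cells (vertical axis) for the 1915 probe sets called in SND1XVE, with equal change marked by the diagonal. Grey points have no called difference between the lines, red points changed more upward in SND1XVE and purple points more upward in VND7XVE, with AT4G02320 and AT5G18470 close to 0 on the vertical axis and TBL34 and AT5G38610 far above the diagonal.

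Genes with the largest differences in favour of SND1XVE rose there with smaller or no called changes in VND7XVE cells. AT4G02320, at 2.4 and 2.5 and then 268.6 and 294.5 in SND1XVE, had 10.5 and 1.4, then 7.7 and 3.2, in VND7XVE. The difference of the changes was 4.02 ± 0.50 (adjusted p = 0.00336) and held when any 1 of the 8 arrays was left out. AT5G18470 went from 637.4 and 570.3 to 3454.9 and 2724.7 in SND1XVE (2.32 ± 0.17) and from 350.1 and 341.9 to 237.8 and 352.2 in VND7XVE (-0.24 ± 0.17). Its difference was 2.56 ± 0.24 (adjusted p = 0.000532), which held likewise.

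TET3 rose in both lines and more in SND1XVE. In VND7XVE it went from 179.8 and 229.5 to 417.4 and 415.1, and the difference was 2.02 ± 0.19 (adjusted p = 0.000497, held without any 1 array). AT4G26880 differed by 3.80 ± 0.56 (adjusted p = 0.00842), lost at adjusted p up to 0.0682 without 5 of the 8 arrays in turn. AT1G63600 (2.74 ± 0.45), AT2G37070 (2.53 ± 0.52) and AT2G41445 (2.49 ± 0.46) had adjusted p of 0.0153, 0.0495 and 0.0303 and lost their calls without 6, 8 and 7 of the 8 arrays in turn. AT1G63600 and AT2G41445 lay below the array median on all 8 arrays. In VND7XVE they went from 27.8 and 20.4 to 1.6 and 2.5 (-1.15 ± 0.32) and from 18.3 and 15.8 to 1.1 and 2.8 (-0.88 ± 0.33). Neither fall was called, but part of each estimated difference came from these lower VND7XVE signals.

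The largest differences in the other direction were in genes with no call in SND1XVE. AT5G40020 stayed at 7.6 and 3.7, then 7.6 and 5.9, in SND1XVE and went from 4.6 and 4.4 to 2571.8 and 3093.9 in VND7XVE, a difference of -7.04 ± 0.43 (adjusted p = 5.81e-05). AT5G19870 (-6.03 ± 0.44), AT1G10800 (-5.72 ± 0.39), AT2G44260 (-5.43 ± 0.42), AT4G08160 (-5.41 ± 0.78) and AT3G52900 (-5.21 ± 0.54) differed in the same direction. In SND1XVE cells the changes of these 6 genes lay between -0.46 and 0.80, none of them called. The differences held without any 1 of the 8 arrays, except that of AT4G08160, lost without 4 of them in turn (0.0505 to 0.0758).

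Shared members also differed in size. GSTU22 rose in both lines, from 536.7 and 501.6 to 11869.8 and 11073.8 in VND7XVE, and differed by -1.87 ± 0.15 (adjusted p = 0.000242). AT5G38610, at 26.0 and 37.7 and then 473.0 and 396.5 in SND1XVE, went from 74.7 and 75.1 to 7309.3 and 6647.1 in VND7XVE, a difference of -3.02 ± 0.22 (adjusted p = 0.000122). The differences of both genes held without any 1 of the 8 arrays. TBL34 went from 4.2 and 5.8 to 789.7 and 851.2 in VND7XVE and differed by -3.75 ± 0.51 (adjusted p = 0.00521), lost without either VND7XVE estradiol replicate (0.0581 and 0.0652).

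For IRX15, GUT2 and GlcAT14B the changes in the 2 lines were close. They were 4.80 and 4.87 for IRX15, 2.68 and 2.94 for GUT2, and 4.73 and 4.91 for GlcAT14B, in SND1XVE and VND7XVE in turn, and the differences were -0.06 ± 0.34, -0.26 ± 0.19 and -0.18 ± 0.48, with adjusted p of 0.974, 0.732 and 0.942. AT5G60530, the largest named rise, changed by 6.03 ± 0.12 in VND7XVE, a difference of 0.39 ± 0.17 (adjusted p = 0.46). CLE44, which fell in SND1XVE cells, had 257.6 and 272.4, then 312.2 and 256.7, in VND7XVE, so that the groups overlapped. Its difference was -1.66 ± 0.33 (adjusted p = 0.0429), lost without 7 of the 8 arrays in turn at adjusted p up to 0.229.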

How the data were processed

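The authors deposited 1 linear signal intensity for each probe set of an array. Per the submitters' processing notes they used GCOS, with a version and settings not given in the sources used here. The trimmed mean is 500.0 or 500.1 on every array, so the intensities were used as deposited. Groups and replicate numbers come from the sample titles, with 2 arrays per group and 8 in all. Probe sets were named from a table of GEO's platform annotation, which can be old, with symbols updated through NCBI reference genes (13436 of 13513 matched), and 11885 keep a locus code. Roles are background knowledge for genes with a symbol. No genome build or sequence table was used, so no coordinates or sequences are given. The number of unused sample columns was 0.

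The deposited intensities were changed to log2(signal + 16), which understates changes of low signals. Means of the 4 groups were fitted to 8 arrays with limma 3.58.1 in R 4.3.3 (eBayes with an intensity trend, 4 residual degrees of freedom), two-sided, with p adjusted by Benjamini-Hochberg over all 22746 probe sets and no filter. A change was called at an adjusted p under 0.05 (errors are moderated SE), and 4545 probe sets had an unadjusted p under 0.05. Precision is limited by the number of arrays. The procedure was tested on simulated data. Tables and figures used Python 3.11.15, pandas 2.3.3 and matplotlib 3.10.9.

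The genes named are the 15 largest rises and 10 largest falls among calls naming 1 gene with non-overlapping groups, up to 5 called members of each of 38 lists (with a 6th for 1 list), and the 6 largest called differences in each direction, with additions marked in the text. Members and lists were chosen with earlier results of these data known. Alternatives tried were pseudocounts of 1 and 64, centred or quantile-normalized arrays, filters at the 40th and 60th percentiles, limma without trend or robust, the replicate block, SND1XVE arrays only, probe sets naming 1 gene, and leaving out each array. Replicate numbers do not pair the samples: deviations of same-numbered arrays correlated at -0.002 between SND1XVE groups and at -0.034 to 0.015 over all pairs of groups.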

Additional observations from a re-analysis of the deposited data

Results flagged for a closer look

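These named genes differed between the lines in their response to estradiol, by limma's test of the difference of the log2 changes (SND1XVE minus VND7XVE) at an adjusted p under 0.05. The change was higher in SND1XVE for AT4G02320 (4.02), AT4G26880 (3.80), AT1G63600 (2.74), AT5G18470 (2.56), AT2G37070 (2.53), AT2G41445 (2.49), TET3 (2.02), HWS (1.45), scpl48 (0.85) and USP (0.65). It was higher in VND7XVE, while rising in both, for AT5G38610 (-3.02), TBL34 (-3.75), AT3G52830 (-2.43), GSTU22 (-1.87), AT1G70500 (-1.61), PRX72 at AT5G66390 (-1.40), AT5G03510 (-1.28), PUB25 (-1.22) and scpl20 (-0.82). For AT1G70500 this holds only with the constant added to each signal before taking logs, which understates changes of low signals. Its signals went from 2.9 and 6.9 to 634.5 and 632.3 in SND1XVE. In VND7XVE they went from 177.1 and 128.5 to 16083.9 and 15643.9. The ratio of its mean signals was not higher in VND7XVE, and the part of the constant in its difference was not tested. For 4 genes that fell in SND1XVE, the change was lower there, AT3G20900 (-2.61), CLE44 (-1.66), Prx37 (-0.88) and CML42 (-0.72). For 6 genes with no call in SND1XVE it was higher in VND7XVE, AT5G40020 (-7.04), AT5G19870 (-6.03), AT1G10800 (-5.72), AT2G44260 (-5.43), AT4G08160 (-5.41) and AT3G52900 (-5.21).

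Leaving out each of the 8 arrays in turn ended none of the differences of AT4G02320, AT5G18470, TET3, AT5G38610, GSTU22, AT5G40020, AT5G19870, AT1G10800, AT2G44260 and AT3G52900. It ended those of AT3G20900, Prx37, HWS, USP and AT2G37070 for all 8 arrays, with adjusted p up to 0.229, 0.194, 0.214, 0.197 and 0.211. Those of CLE44, CML42, PUB25, AT5G03510 and AT2G41445 were lost for 7 arrays, with adjusted p up to 0.229, 0.15, 0.234, 0.229 and 0.16. Those of scpl48, scpl20, AT3G52830 and AT1G63600 were lost for 6 arrays (up to 0.0959, 0.172, 0.209 and 0.103), those of AT5G66390 and AT4G26880 for 5 (up to 0.116 and 0.0682), that of AT4G08160 for 4 (up to 0.0758) and those of AT1G70500 and TBL34 for 2 (up to 0.0951 and 0.0652).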

How the results depend on the processing

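With 2 arrays per group, the counts moved with the variance model and the scaling. Rises (1107 as reported) were 707 with SND1XVE arrays only, 628 without the intensity trend, 578 over probe sets naming 1 gene and 644 to 886 when 1 array was left out. Falls (808) were 441, 270, 371 and 398 to 539 in the same settings, and 1315 on centred arrays. Rises of at least 2-fold (507) were 277 over probe sets naming 1 gene and 388 to 472 without 1 array. Falls of at least 2-fold (130) were 79 with SND1XVE arrays only, 216 on centred arrays, 67 with the filter at the 60th percentile, 54 with pseudocount 64, 63 over probe sets naming 1 gene and 69 to 144 without 1 array. Differences higher in SND1XVE (95) were 161 and 166 with the filters at the 40th and 60th percentiles, 22 without trend, 38 over probe sets naming 1 gene and 20 to 60 without 1 array. Those higher in VND7XVE (196) were 85 without trend, 104 over probe sets naming 1 gene and 77 to 153 without 1 array. The numbers over probe sets naming 1 gene are lower because fewer probe sets were tested, and the cause of the others was not tested. With the replicate number as a block there were 1067 rises and 760 falls, and 4 of the 122 named calls were lost.

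Of 74 named rises 57 kept their call under every alternative run, and of 48 named falls 14 did. None of these named rises and falls turned its direction. The directions of the differences between the lines are not covered by this statement. Named calls were lost most without the trend (37) and without estradiol replicate 1 (37). Detection calls were not used here, so low signals, from which most large rises and the low-level falls start, carry no measured background.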

Other observations

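Genes that lie next to each other on a chromosome were compared for shared calls. Of 5878 neighbouring pairs in which both genes were measured, 26 pairs both rose, 27 both fell, 14 moved in opposite directions and 876 had a call in 1 gene alone. Over all 13513 probe sets naming 1 gene, 4.5% were called rises and 2.98% called falls. Whether neighbours share calls more often than other pairs was not tested. Of 144 genes measured by several probe sets, 0 had calls in opposite directions, which such low shares of calls could also give.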
